A study of Mus musculus with 19 samples.

Results

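The 10 genes described here encode proteins that astrocytes release, or hold in the extracellular matrix, and that are known for acting on synapses. They were chosen by name: the matricellular proteins *Sparcl1* and *Sparc*, the thrombospondins *Thbs1*, *Thbs2* and *Thbs4*, the glypicans *Gpc4*, *Gpc5* and *Gpc6*, the BMP antagonist *Chrdl1* and the proteoglycan *Bcan*. Each was found on 1 entry carrying no other symbol, so that all 10 members are described out of 60567 genes listed. The rule uses names alone, although earlier results of these data were known when the genes were listed. RNA was sequenced from cells sorted by FACS from the hippocampus of male C57bl6 mice that were 9 months old. All mice had received, in the CA1 region and several months before, adeno-associated viral vectors (AAV) whose gfaABC1D promoter, derived from the *GFAP* promoter, directs expression to astrocytes. GFP+ astrocytes came from non-transgenic littermates given AAV-GFP (WT-GFP, 7 samples), from APP/PS1dE9 mice given AAV-GFP (APP-GFP, 4 samples) and from APP/PS1dE9 mice given AAV-SOCS3 together with AAV-GFP (APP-SOCS3, 5 samples). GFP- cells came from WT-GFP mice (3 samples). APP/PS1dE9 mice carry a chimeric mouse and human *App* with the Swedish mutations and develop amyloid plaques. SOCS3 is an inhibitor of the JAK2-STAT3 pathway. GFP marks infected astrocytes only, so the GFP- gate holds microglia, neurons and other cells and also non-infected astrocytes. The study gives its group sizes as mice and sorted both hippocampi of a mouse apart, while the labels name no mouse for a sample, so that p-values measure the spread between samples.

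Astrocytes instruct synapses through secreted and matrix proteins. Sparcl1 (also called hevin) and the thrombospondins promote the assembly of excitatory synapses, thrombospondins through the calcium channel subunit Cacna2d1, while Sparc counteracts Sparcl1. The glypicans Gpc4 and Gpc6 are heparan sulfate proteoglycans, held by a lipid anchor and released from it, that bring AMPA receptors to new synapses, and Chrdl1 drives synapse maturation. Brevican, the product of *Bcan*, is a lectican of the perisynaptic matrix and of perineuronal nets, which limit plasticity in the adult hippocampus.

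Levels are the normalized mRNA levels of the study, that is the reads counted on a gene divided by 1 size factor per sample, with 1 read worth 0.756 to 1.18 units. From 19331876 to 32621917 reads fell on genes in each sample. A total of 4 libraries, WT-GFP replicates 1, 2 and 3 and APP-GFP replicate 2, had under 20000 genes with a read. *Socs3*, the transferred gene, stood at 438.3 to 1639 units in APP-GFP samples and at 13296 to 37750 in those given AAV-SOCS3, without overlap. WT-GFP astrocytes had 457.8 to 1208 units, and GFP- cells had 10320 to 17689, so that the gene checks the labels of APP-SOCS3 samples against other astrocyte samples only. All 12 astrocyte markers, among them the water channel *Aqp4*, were higher in WT-GFP astrocytes than in GFP- cells, and *Aqp4* still had 331.4 to 940.9 units in GFP- samples. In GFP- samples, endothelial markers summed to 134614 to 213158 units, mural markers to 125960 to 166702 and microglial markers to 103017 to 183376. Those of oligodendrocyte precursors summed to 47038 to 77894 units and neuronal markers to 3552 to 8314. Such sums over different genes do not count cells. Markers of other cells were present in GFP+ samples: the microglial receptor *Cx3cr1* had 186.3 to 1763 units and the endothelial tight junction gene *Cldn5* had 331.3 to 13812 units over the 3 astrocyte groups. In such sorted bulk samples, fewer cells of a type and less RNA per cell cannot be told apart.

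The members covered a wide range of levels in WT-GFP astrocytes. To set genes side by side, levels were divided by the length of all annotated exons of the gene, since the length of the regions that were counted is not given. Per kb, *Sparcl1* had the highest mean level, 108588 ± 17006 (SD, n = 7), followed by *Bcan* with 10825 ± 1651 (SD, n = 7), *Sparc* with 5147 ± 1013 (SD, n = 7) and *Gpc5* with 2056 ± 446.5 (SD, n = 7). *Thbs4* had 551.5 ± 173 per kb, *Gpc4* 321.9 ± 159, *Gpc6* 76.3 ± 41.7 and *Chrdl1* 42.3 ± 25.9 (SD, n = 7). *Thbs1* had 2.75 ± 3.98 and *Thbs2* 0.41 ± 0.538 per kb (SD, n = 7). The ranges of *Sparcl1*, *Bcan*, *Sparc*, *Gpc5* and *Thbs4* were apart from each other. Those of neighbours from *Thbs4* downward overlapped, although *Thbs4* stood above *Gpc4* and *Gpc4* above *Gpc6* within each of the 7 samples. The first 8 places were held by the same genes in the same order in all 3 astrocyte groups.

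In GFP- cells the order per kb was different. *Sparc* came second with 7009 ± 1056 (SD, n = 3) and *Bcan* next with 2146 ± 664 (SD, n = 3), and *Sparc* was above *Bcan* in each of the 3 samples. *Thbs1*, with 269 ± 135 per kb, reached the levels of *Gpc4* and *Gpc5* (319.8 ± 52.3 and 265 ± 114, SD, n = 3), and the ranges of these neighbours overlapped. *Sparcl1* alone took 1.1% to 1.63% of all reads on genes in WT-GFP astrocytes, beside 0.373% to 0.427% among GFP- cells.

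**Figure D1:**
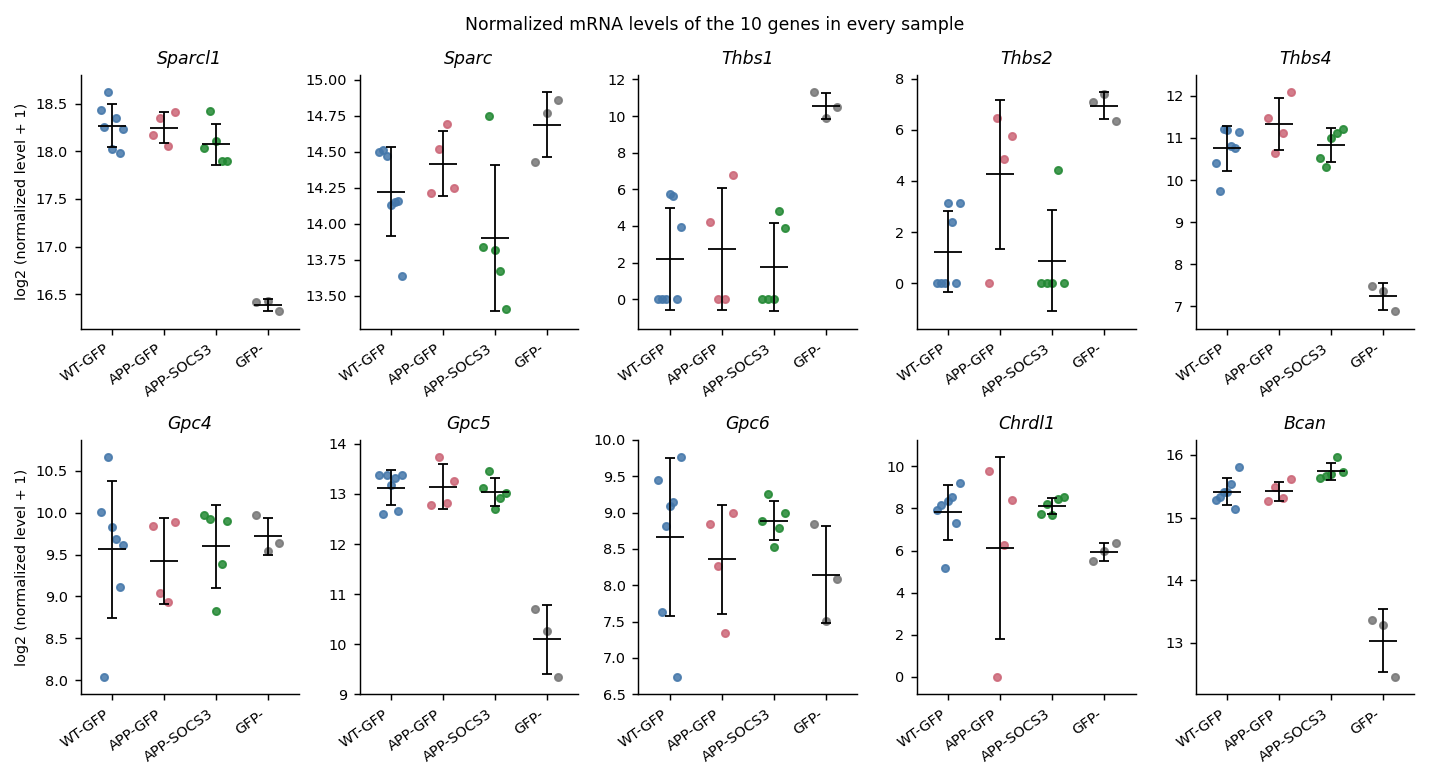
Normalized mRNA levels of the 10 genes on the log2 (level + 1) scale, with a point for each sample of GFP- cells (n = 3) and of astrocytes from WT-GFP (7), APP-GFP (4) and APP-SOCS3 mice (5). Long bars are means and error bars SD. Vertical axes differ between genes and need not start at 0. *Sparcl1*, *Thbs4*, *Gpc5* and *Bcan* lie higher in every astrocyte sample than in GFP- cells, and *Thbs1* lies lower.

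The first comparison asked which of these mRNAs are enriched in sorted WT-GFP astrocytes relative to GFP- cells of the same mice group. *Sparcl1*, *Thbs4*, *Gpc5*, *Chrdl1* and *Bcan* were higher in astrocytes, *Thbs1* and *Thbs2* were lower, and *Sparc*, *Gpc4* and *Gpc6* were not called. A gene was called when its unadjusted limma p did not exceed 0.05 and its fold change was 1.5 or more, and Benjamini-Hochberg adjusted p are given beside. By this rule 7 of 10 members were called, while 42.8% of the 26709 genes tested were. The 5 members called higher stand beside 9.25% of all genes called higher, and the 2 called lower beside 33.5% called lower. A total of 6 members had an adjusted p under 0.05 (31.9% of all genes), and 6 had groups that do not overlap (34.8% of all genes). *Thbs2* is in the counts of members called, called lower, with an adjusted p under 0.05 and without overlap. It passed the minimum mean level of 10 only through GFP- cells, where it is high, so that it adds no support to them. The median log2 fold change was 1.2 over the members and -1.31 over all genes tested, so that a gene at 0 on this scale stands above the median gene.

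*Sparcl1* (chr5:104079111-104114088 on mm10, minus strand) had levels in WT-GFP astrocytes of 258180 at the lowest, 312576 at the median and 401689 at the highest of 7 samples, and in GFP- samples 87629, 88207 and 81789. All 7 astrocyte samples were above all 3 GFP- samples. The log2 fold change was 1.88 with a standard error (SE) of 0.134, and the adjusted p of limma was 7.05e-06. *Sparc* (chr11:55394159-55420080, minus strand) showed no such excess. Its levels were 12784, 18340 and 23260 at the lowest, median and highest of 7 astrocyte samples, and 22055, 27878 and 29715 in GFP- samples, which overlapped. Its log2 fold change was -0.46 (SE 0.191, adjusted p of limma 0.0884), under the fold required. It was called lower without GFP- replicate 1 (-0.59), without the 4 libraries under 20000 genes (-0.66) and under scaling to equal totals (-0.64) or equal upper quartiles (-0.92).

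Within a sample, the ratio of *Sparcl1* to *Sparc* does not depend on the size factor. This ratio was 13.4 to 24 in WT-GFP astrocytes with a median of 15.3, and 3.97, 3.16 and 2.75 in GFP- samples. Groups did not overlap, and the log2 ratios differed by 2.34 (SE 0.189). The exact permutation test gave p = 0.0167, the smallest that 7 against 3 samples allow, which became 0.0667 after Benjamini-Hochberg adjustment over 8 ratio tests.

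Among thrombospondins, large adhesive glycoproteins of the matrix, *Thbs4* stood opposite to *Thbs1* and *Thbs2*. *Thbs4* had 850.5 to 2378 units in WT-GFP astrocytes with a median of 1790, against 178.6, 163.3 and 116.7 in GFP- samples. The groups were apart, with a log2 fold change of 3.51 (SE 0.338, adjusted p of limma 2.1e-05). *Thbs1* (chr2:118111876-118127132, plus strand) was listed at 0 in 4 of the 7 astrocyte samples and had 53.1, 49.3 and 14.7 units in the other samples. In GFP- samples it had 2533, 935.4 and 1425 units, so that its mean of 16.7 in astrocytes was 97.5-fold lower. This mean rests on 3 samples, and the fold was 70.6 to 153 when leaving out each sample, highest without WT-GFP replicate 4. On the log2 (level + 1) scale the difference was -8.35 (SE 1.59), with an adjusted p of limma of 0.00248. *Thbs2* was at 0 in the same number of astrocyte samples and at most 7.9 in the rest, against 133.9, 167.1 and 81.3 in GFP- samples. Its mean was 44.4-fold lower in astrocytes (37.5 to 62.7 when leaving out each sample), with an adjusted p of limma of 0.00169. It passed the minimum mean level of 10 only through GFP- cells, where it is high, so that the call is no support for a difference. WT-GFP replicates 1, 2 and 3, which had few genes with a read, and replicate 6 were those at 0 for both genes, and 3 reads would have been 2.28 to 3.53 units.

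Promoter sequences are shown for *Thbs4* and *Bcan*, which were higher in astrocytes, and for *Thbs2*, which was lower. They come from RefSeq (GRCm38.p6, the assembly of mm10), span 250 bases before to 50 after the start of the gene, and are on the minus strand, read 5′ to 3′. *Thbs4* lies at chr13:92794769-92795068, *Bcan* at chr3:88000307-88000606 and *Thbs2* at chr17:14694213-14694512. CpG dinucleotides are in capitals.
Thbs4: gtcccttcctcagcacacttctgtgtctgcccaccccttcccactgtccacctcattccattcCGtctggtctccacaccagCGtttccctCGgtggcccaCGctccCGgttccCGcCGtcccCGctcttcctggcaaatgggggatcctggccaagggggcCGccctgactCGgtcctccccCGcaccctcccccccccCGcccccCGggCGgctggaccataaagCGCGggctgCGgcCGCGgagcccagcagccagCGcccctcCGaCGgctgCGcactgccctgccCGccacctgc
Bcan: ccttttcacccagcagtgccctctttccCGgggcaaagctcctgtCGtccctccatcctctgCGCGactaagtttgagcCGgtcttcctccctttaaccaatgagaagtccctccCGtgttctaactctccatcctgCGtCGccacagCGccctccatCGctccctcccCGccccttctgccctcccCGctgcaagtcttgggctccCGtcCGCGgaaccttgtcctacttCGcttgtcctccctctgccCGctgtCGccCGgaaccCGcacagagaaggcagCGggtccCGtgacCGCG
Thbs2: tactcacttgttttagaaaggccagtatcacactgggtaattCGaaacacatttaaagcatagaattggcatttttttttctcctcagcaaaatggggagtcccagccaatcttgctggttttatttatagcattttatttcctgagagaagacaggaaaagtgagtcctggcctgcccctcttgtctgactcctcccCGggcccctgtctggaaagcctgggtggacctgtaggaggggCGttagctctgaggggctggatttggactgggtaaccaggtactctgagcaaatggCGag
*Thbs4* and *Bcan* held 24 CpG each and *Thbs2* held 4. Over all 32851 mouse promoters of this length the quartiles were 3, 7 and 20. RefSeq promoters were matched for 6 of the 10 members, and the others held 22 (*Gpc4*), 17 (*Gpc5*) and 4 (*Sparc*). GC content was 72% for *Thbs4*, 64% for *Bcan* and 48.3% for *Thbs2*, beside a median of 52.7%. As the transferred SOCS3 acts upstream of STAT3, the STAT pattern TTCNNNGAA, which reads the same on both strands, was searched for. None of the 6 windows held it, while 8.3% of all promoters did, and the stricter TTCCNGGAA, contained in the first pattern, was in 1.15% of all promoters. These counts describe the letters of the windows only.

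The glypicans also differed from each other in this comparison. *Gpc5* had 6196 to 10642 units in WT-GFP astrocytes with a median of 10249, and 1661, 1227 and 650.5 in GFP- samples. All astrocyte samples were above, with a log2 fold change of 3.02 (SE 0.292, adjusted p of limma 2.12e-05). *Gpc4* had 262.3 to 1621 units in astrocytes, beside 743.3 to 1005 in GFP- cells, and differed by -0.15 on the log2 scale (SE 0.46). *Gpc6* had 105.7 to 866.2 units in astrocytes, beside 181.5 to 457.4 in GFP- cells, and differed by 0.52 (SE 0.633). The ratio of *Gpc5* to the sum of *Gpc4* and *Gpc6* was 5.13 to 13.5 in astrocytes and 1.14, 1.33 and 0.611 in GFP- samples, without overlap. Its log2 value differed by 2.94 (SE 0.386, exact permutation p = 0.0167, adjusted 0.0667). *Gpc5* and *Gpc6* are neighbours on chromosome 14, at chr14:115092214-116525192 and chr14:116925296-117979529 on the plus strand of mm10. Within their spans 6 and 20 other entries are listed, with mean levels of at most 208.3 and 147.7 units, and whether strand was used for counting is not stated.

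*Chrdl1* (chrX:143285674-143394262, minus strand), a secreted antagonist of BMPs, had 35.3 to 589.9 units in astrocytes with a median of 281.6, and 43.6, 61.3 and 80.4 in GFP- samples. A single astrocyte sample, replicate 3, fell below all GFP- samples, and the other 6 were above them. The log2 fold change was 1.88 (SE 0.756), with p = 0.0306 and an adjusted p of 0.0804 in limma and p = 0.0667 in the exact permutation test. *Chrdl1* was no longer called without WT-GFP replicate 4, 5 or 7 or GFP- replicate 1 or 2 (log2 fold changes of 1.64 to 1.89), under equal upper quartiles (1.42) or with all 19 samples in one fit (1.88 with a larger error). *Bcan* was more regular, with 36083 to 56925 units in astrocytes around a median of 43220, and 10569, 9973 and 5625 in GFP- samples. Its log2 fold change was 2.37 (SE 0.201, adjusted p of limma 1.04e-05), and no sample of either group reached the other.

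**Figure D2:**
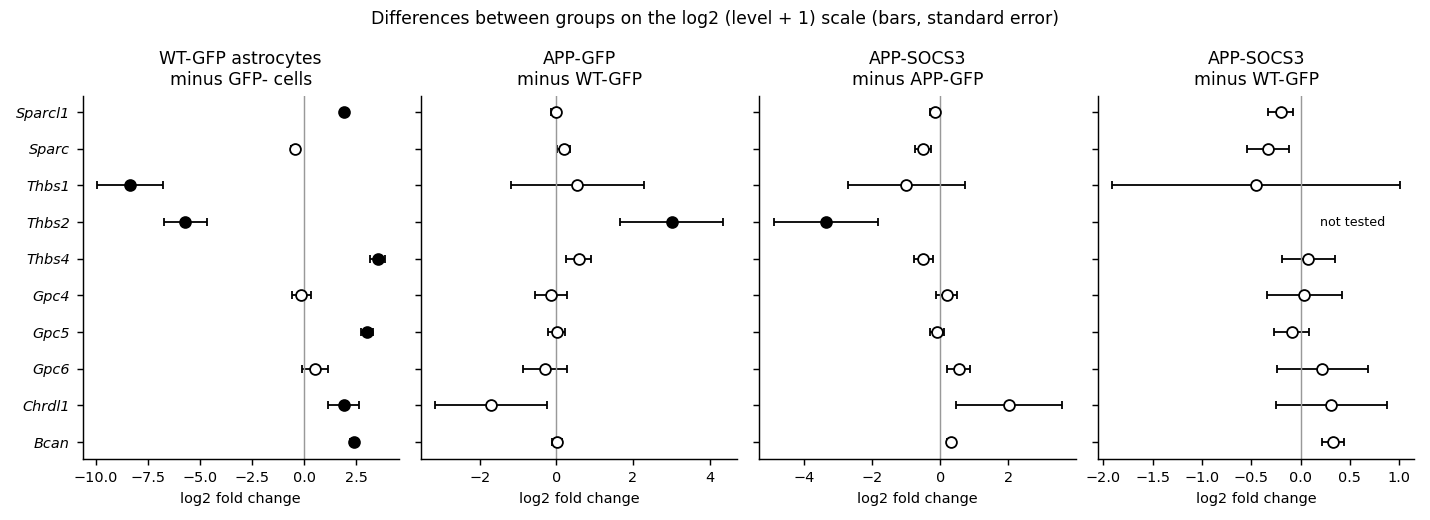
Log2 fold changes of the 10 genes in the 4 comparisons, from limma on log2 (level + 1), with bars for the standard error. Filled points were called (p not above 0.05, fold change of 1.5 or more) and open points were not. Horizontal axes differ between panels. Called genes are 7 in the first panel, *Thbs2* alone in each of the next panels, and none in the last, where *Thbs2* was under the minimum level.

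Relatives and partners of these genes, from lists set by name, were compared in the same fit. Of 16 relatives, 1 was called higher in astrocytes and 8 lower, while 9.25% of all genes tested were called higher and 33.5% lower. The gene called higher was *Ncan* (log2 fold change 2.18, SE 0.336), which encodes neurocan, a lectican like brevican, while *Acan*, which encodes the lectican aggrecan, was lower (-5.8, SE 0.693). Also lower were *Spock2* (-4.11, SE 0.572), *Spock3* (-3.78, SE 1.01), the thrombospondin *Comp* (-4.57, SE 0.979) and the glypican *Gpc3* (-7.79, SE 1.69). Among 7 tested partners of the lectican matrix, *Hapln1*, a link protein that fixes lecticans to hyaluronan, was higher (4.04, SE 0.526). *Tnr*, which encodes tenascin-R, was lower (-8.08, SE 1.67), as were the hyaluronan synthases *Has1* (-3.79, SE 0.739) and *Has2* (-5.73, SE 1.23).

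Of 16 receptors and synaptic partners of the members, 9 were called lower in astrocytes and 1 higher, while 33.5% of all genes tested were called lower. *Itgb1* (log2 fold change -3.21, SE 0.57) and *Itgb3* (-6.25, SE 1.34), integrin subunits, *Lrrtm4* (-7.18, SE 1.35), a glypican receptor of synapses, *Nptx1* (-5.12, SE 1.27), a pentraxin that clusters AMPA receptors, and *Cd36* (-5.52, SE 1.44), a thrombospondin receptor, were lower. Of 4 BMP ligands, which chordin-like proteins hold, *Bmp2* (-5.46, SE 1.47) and *Bmp4* (-4.78, SE 1.33) were lower. Among 9 tested proteases and releasing enzymes, the membrane protease *Mmp14* was higher (0.86, SE 0.28) and 6 were lower. *Mmp9* (-6.82, SE 0.921), *Adamts1* (-4.25, SE 0.662), *Adamts4* (-6.74, SE 1.57), *Adamts5* (-4.77, SE 1.67) and *Notum* (-3.76, SE 1.46), which releases glypicans from their anchor, were among these. Of these named genes, *Acan*, *Spock3*, *Comp*, *Has1*, *Has2*, *Itgb3*, *Lrrtm4*, *Nptx1* and *Mmp9* had mean levels under 10 in astrocytes and were tested only through their level in GFP- cells. So was *Cacna2d1*, also called lower, with a mean of 9.45 units. All are in the counts and medians of their lists, so that these are no support for a difference. The list of BMP ligands held no such gene. The median log2 fold changes were -2.66 for relatives, -3.44 for matrix partners, -2.96 for receptors, -2.68 for ligands and -3.88 for proteases. The median was -1.31 for all genes, which passed the same filter.

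**Figure D3:**
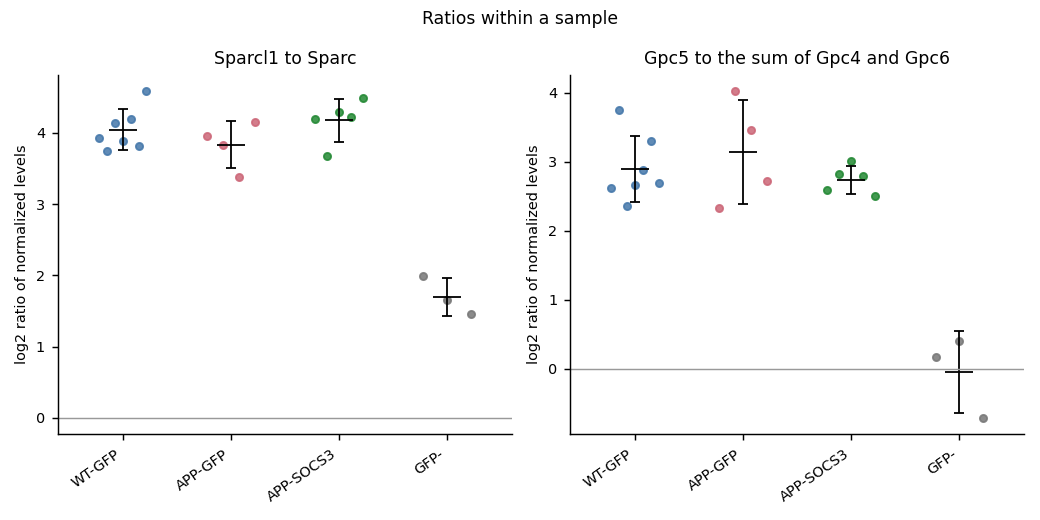
Log2 ratios, within each sample, of *Sparcl1* to *Sparc* and of *Gpc5* to the sum of *Gpc4* and *Gpc6*, for GFP- cells (n = 3) and WT-GFP (7), APP-GFP (4) and APP-SOCS3 (5) astrocytes. Long bars are means and error bars SD. Ratios of all astrocyte groups lie above those of GFP- cells, and the 3 astrocyte groups overlap each other.

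The second comparison asked whether the APP genotype changed these mRNAs in astrocytes. Levels of most members were close in APP-GFP and WT-GFP astrocytes, and *Thbs2*, a thrombospondin at low level, was the single member called. It was higher in APP-GFP astrocytes, and had passed the minimum mean level of 10 only through that group, where it is high, so that the call is no support for a difference. This is 1 of 10 members, while 2.23% of the 22969 genes tested were called. No member had an adjusted p under 0.05 in limma (0.00435% of all genes did), and no member had groups that do not overlap (0.313% of all genes). At an unadjusted p under 0.05 the count is 1, and edgeR and DESeq2 on whole reads called 0. The median log2 fold change was 0.01 over the members and 0.09 over all genes.

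*Thbs2* was at 0, 86.3, 27.7 and 52.3 units in the 4 APP-GFP samples, that is 0, 91, 28 and 60 reads. In WT-GFP astrocytes it had at most 8 reads in any sample and a mean of 2.87 units. In APP-GFP, 3 of the 4 samples were above every WT-GFP sample, and replicate 1 was at 0. The log2 fold change was 3.01 (SE 1.34), with p = 0.0429 and an adjusted p of 0.999 in limma, and the exact permutation test gave p = 0.0727. The call depended on single libraries: *Thbs2* was no longer called without any one of WT-GFP replicates 1, 2, 3 or 6 or APP-GFP replicates 2, 3 or 4, with log2 fold changes of 2.28 to 2.82. Without the 4 libraries under 20000 genes, an alternative chosen after seeing the data, its log2 fold change was 1.35 and was not called. The summed level of 6 fibroblast and meningeal markers, cells that are known to express thrombospondins, was 1231, 4730, 2248 and 1728 units in the 4 APP-GFP samples. Replicate 1, with no *Thbs2* read, had the least and replicate 2 the most, while replicates 3 and 4 were in the reverse order of their *Thbs2* levels. WT-GFP replicate 2 had 2873 units of these markers and no *Thbs2* read. They ranged from 1266 to 2987 units in WT-GFP astrocytes, and GFP- cells had 8306 to 26890. The part of these cells in the *Thbs2* level was not tested.

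*Thbs4* had 2863, 1595, 2213 and 4356 units in APP-GFP samples, beside 850.5 to 2378 in WT-GFP. A pair of APP-GFP samples, replicates 1 and 4, stood above all WT-GFP samples, and the groups overlapped. Its log2 fold change of 0.58 (SE 0.325, adjusted p of limma 0.999) was not called. It was called without APP-GFP replicate 2 (0.81) and without the 4 libraries under 20000 genes (0.59). *Sparcl1* differed by -0.02 (SE 0.124), *Bcan* by 0.01 (SE 0.127) and *Gpc5* by 0.01 (SE 0.224) on the log2 scale. *Sparc* differed by 0.19 (SE 0.171), with 18957, 23439, 26352 and 19433 units in APP-GFP samples. *Chrdl1* was at 870.8, 0, 75.2 and 335.6 units, the largest coefficient of variation (SD over mean, 123%) in this group among members with a mean above 100. Its log2 fold change of -1.7 (SE 1.46) turned to 0.33 without APP-GFP replicate 2, the library with no *Chrdl1* read. Neither the ratio of *Sparcl1* to *Sparc* (10.4 to 17.9 in APP-GFP) nor that of *Gpc5* to *Gpc4* plus *Gpc6* (5.08 to 16.4) was apart from WT-GFP, with exact permutation p of 0.327 and 0.497. Of the lists of relatives, matrix partners, receptors, ligands and proteases, no gene was called by limma here.

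The third comparison asked what transfer of SOCS3 changed in astrocytes of APP mice. *Bcan*, which encodes brevican, had levels in all 5 APP-SOCS3 samples above those of all 4 APP-GFP samples, with a fold change of 1.25, under the fold required for a call. *Thbs2* was called lower, but passed the minimum mean level only through APP-GFP, where it is high, and *Sparc* had 4 of 5 APP-SOCS3 samples below all APP-GFP samples without being called. The other members overlapped with small differences or wide spreads. The 1 member called compares with 5.7% of the 22844 genes tested, the 0 with an adjusted p under 0.05 in limma with 0.00438%, and the 1 with groups that do not overlap with 2.01% of all genes. At an unadjusted p under 0.05 the count is 2, *Bcan* and *Thbs2*, while edgeR and DESeq2 called 0. The median log2 fold change was -0.14 over the members and 0.08 over all genes.

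*Bcan* had 50870, 52098, 52936, 63701 and 54296 units in the 5 APP-SOCS3 samples, and 39594, 45750, 40655 and 49840 in the 4 APP-GFP samples. Each APP-SOCS3 sample was above the highest APP-GFP sample, by a narrow margin for the lowest of them. The fold change was 1.25 (log2 0.32, SE 0.115), with p = 0.0178 and an adjusted p of 0.677 in limma and an exact permutation p of 0.0159, the smallest that 5 against 4 samples allow. Under 11 other settings the log2 fold change was 0.32 to 0.49 and p 0.0044 to 0.11, with p of at most 0.05 in 9 of them. Leaving out each sample in turn gave 0.26 to 0.38, and p was above 0.05 without APP-GFP replicate 1 (0.0579) or 3 (0.0522). Like *Bcan*, none of the 12 astrocyte markers was called, and their median log2 fold change was 0.18. Their summed level was 751963 to 1184846 units in APP-SOCS3 and 668181 to 918364 in APP-GFP samples. The lectican *Ncan* was also higher without being called (log2 fold change 0.45, SE 0.144, adjusted p of limma 0.641). The median over 12 tested relatives of the members was 0.05. *Bcan* took 0.208% to 0.278% of reads in APP-SOCS3, 0.165% to 0.214% in APP-GFP and 0.154% to 0.261% in WT-GFP astrocytes.

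**Figure D4:**
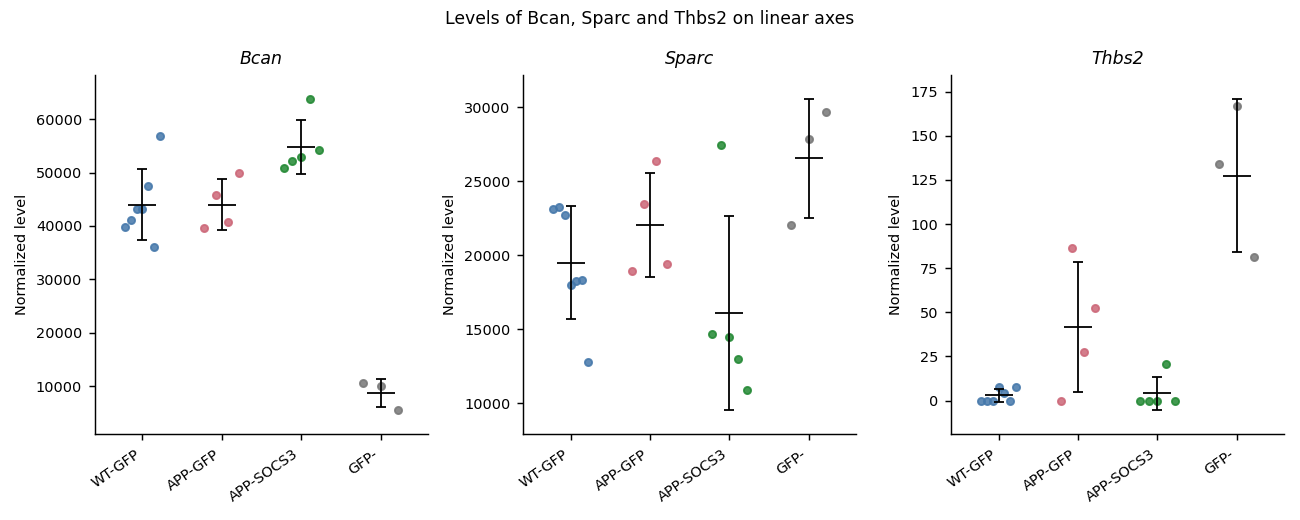
Normalized levels of *Bcan*, *Sparc* and *Thbs2* on linear axes, with a point for each sample, long bars for means and error bars for SD, in GFP- cells (n = 3) and WT-GFP (7), APP-GFP (4) and APP-SOCS3 (5) astrocytes. Vertical axes of *Bcan* and *Sparc* do not start at 0. The 5 APP-SOCS3 samples lie above the 4 APP-GFP samples for *Bcan*, and for *Sparc* 4 of 5 lie below them with replicate 2 at 27468.

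*Sparc* had 14689, 27468, 14452, 13009 and 10893 units in APP-SOCS3 samples. Replicate 2 was above every APP-GFP sample and the other 4 were below all of them, the lowest APP-GFP sample being at 18957. Its log2 fold change was -0.52 (SE 0.236), with p = 0.0502 and an adjusted p of 0.797 in limma and an exact permutation p of 0.111. Without APP-SOCS3 replicate 2 it was -0.73 and was called, and it was also called without APP-GFP replicate 1 (-0.59). *Sparcl1* moved less, by -0.17 (SE 0.139), with 267987, 351225, 282491, 244529 and 244406 units in APP-SOCS3 samples, the highest again in replicate 2. The ratio of *Sparcl1* to *Sparc* was 18.2, 12.8, 19.6, 18.8 and 22.4 in APP-SOCS3 and 15.6, 14.2, 10.4 and 17.9 in APP-GFP samples, which overlapped (exact permutation p = 0.159, adjusted 0.423).

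*Thbs2* was at 0 in 4 of 5 APP-SOCS3 samples and had 20.6 units, 21 reads, in replicate 4. Against the APP-GFP samples given above, its log2 fold change was -3.37 (SE 1.53), with p = 0.0498 and an adjusted p of 0.795 in limma and an exact permutation p of 0.0952. It was no longer called without APP-GFP replicate 2, 3 or 4 or APP-SOCS3 replicate 1, 2, 3 or 5, with log2 fold changes of -3.18 to -2.64. *Thbs4* had 1473, 1261, 2041, 2230 and 2378 units and a log2 fold change of -0.5 (SE 0.291, adjusted p of limma 0.816). It was called lower without APP-GFP replicate 2 (-0.73). *Thbs1* was at 0 in 3 of 5 APP-SOCS3 and 2 of 4 APP-GFP samples, with at most 27.4 units in the first group and 111.6 in the second. *Gpc4* (0.18, SE 0.309), *Gpc5* (-0.1, SE 0.216), *Gpc6* (0.53, SE 0.342) and *Chrdl1* (2.01, SE 1.55) overlapped between groups. The value for *Chrdl1* was -0.02 without APP-GFP replicate 2. *Chrdl1* itself was steady in APP-SOCS3 astrocytes, with 204 to 370 units in all 5 samples.

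Markers of other cells, mostly of vessels and microglia, were lower in this comparison. All 12 microglial and all 12 endothelial markers were called lower in APP-SOCS3 than in APP-GFP astrocytes, and so were 4 of 10 mural, 3 of 6 fibroblast and meningeal, 3 of 8 oligodendrocyte precursor, 3 of 10 neuronal and 1 of 7 tested oligodendrocyte markers. Of all genes tested, 5.7% were called. These calls rest on unadjusted p, and the adjusted p of limma was 0.194 to 0.789 over the microglial and endothelial markers. Summed microglial markers were at 6837 to 12791 units in APP-SOCS3 and 12743 to 59048 in APP-GFP samples, and summed endothelial markers at 1008 to 6117 and 5525 to 30289 units. Fibroblast and meningeal markers summed to 939.5 to 1314 and 1231 to 4730 units, and mural markers to 2480 to 4192 and 4330 to 21571 units. Among defining markers, *Cx3cr1* was at 186.3 to 403.7 in APP-SOCS3 and *Cldn5* at 331.3 to 1941, while the mural receptor *Pdgfrb* was at 716.1 to 2112 beside 793.4 to 2113 in APP-GFP. Mean levels of *Sparc* and *Thbs2* were lower in APP-SOCS3 like those of these lists, and both genes had higher means in GFP- cells than in WT-GFP astrocytes. The part of such cells in their levels was not tested.

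**Figure D5:**
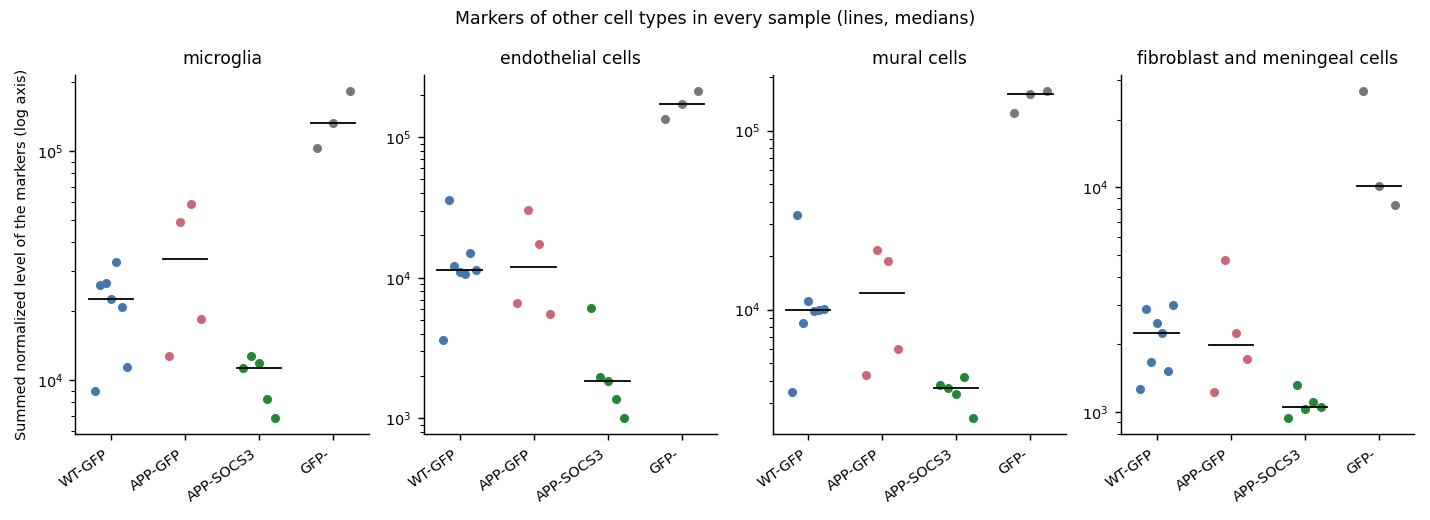
Summed normalized levels of markers of microglia (12 genes), endothelial cells (12), mural cells (10) and fibroblast and meningeal cells (6) in each sample, on log axes, with lines for medians. APP-SOCS3 samples lie low on each list, at 1008 to 6117 units for endothelial markers beside 5525 to 30289 in APP-GFP, and GFP- cells lie highest.

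Among the lists of relatives and partners, *Spock2*, a testican of the SPARC family, was lower in APP-SOCS3 than in APP-GFP astrocytes (log2 fold change -1.31, SE 0.421, adjusted p of limma 0.641). *Hapln4*, a link protein of perineuronal nets that binds brevican, was called higher, having passed the minimum mean level only through APP-SOCS3. It was at 0 in all 4 APP-GFP samples and at 5.52 to 37.8 units in the 5 APP-SOCS3 samples, with an adjusted p of limma of 0.522. Its mean was 17.6 units in APP-SOCS3, the group through which it was tested, so that the call is no support for a difference. The mean of *Hapln4* in WT-GFP astrocytes was 22.96 units (SD 30.71). It was not called between APP-SOCS3 and WT-GFP astrocytes (log2 fold change 1.53, SE 1.38). No receptor, BMP ligand or protease of the lists was called by limma.

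The fourth comparison set APP-SOCS3 beside WT-GFP astrocytes, and shares its samples with the comparisons above. No member of the 9 tested was called, while 5.21% of the 22958 genes tested were, and *Thbs2* was under the minimum level in both groups. None had an adjusted p under 0.05 in limma (0.0305% of all genes) or groups that do not overlap (0.566% of all genes). At an unadjusted p under 0.05 the count is 1, *Bcan*, and edgeR and DESeq2 called 0. *Bcan* was higher by a log2 fold change of 0.33 (SE 0.112, p = 0.0118, adjusted p 0.682 in limma), and the exact permutation test gave p = 0.0177. A WT-GFP sample, replicate 7 with 56925 units, stood above 4 of the 5 APP-SOCS3 samples. The median over all genes was 0.19 here. Under scaling to equal upper quartiles *Bcan* was called, with 0.67 beside a median of 0.52 over all genes, and without the 4 libraries under 20000 genes it was 0.27 and limma's p was above 0.05. *Sparcl1* (-0.2, SE 0.125), *Sparc* (-0.33, SE 0.211), *Thbs4* (0.08, SE 0.267), *Gpc4* (0.04, SE 0.381), *Gpc5* (-0.09, SE 0.18), *Gpc6* (0.22, SE 0.463) and *Chrdl1* (0.31, SE 0.563) overlapped between the groups. No gene of the lists of relatives and partners was called.

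Members differed in how steady they were between samples of 1 group. In APP-SOCS3 astrocytes the coefficient of variation was 9.38% for *Bcan*, 15.8% for *Sparcl1* and 18.5% for *Gpc6*, and 40.6% for *Sparc*. In WT-GFP astrocytes it was 15.3% for *Bcan*, 15.7% for *Sparcl1*, 19.7% for *Sparc* and 21.7% for *Gpc5*. *Gpc4* (49.5%), *Gpc6* (54.6%) and *Chrdl1* (61.1%) varied more, and these are also less abundant. For *Thbs1* and *Thbs2*, with samples at 0, it was above 100% in WT-GFP astrocytes.

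Genes whose levels followed each member most closely over the 16 GFP+ samples are given as a description, without test, since these samples share libraries and depth and 10654 genes were searched. Pearson r of log2 levels, with Spearman rho after it, was 0.868 (0.85) between *Sparcl1* and the entry of *Vezt* and *Mir331*, 0.832 (0.835) between *Sparc* and the lysosomal sterol carrier *Npc2*, and 0.841 (0.771) between *Bcan* and the growth factor receptor *Fgfr1*. For glypicans it was 0.921 (0.785) between *Gpc4* and *Snap23*, 0.91 (0.903) between *Gpc5* and *Pls3*, and 0.948 (0.9) between *Gpc6* and *Abcd2*. *Thbs4* was nearest to the potassium channel *Kcnt1* (0.808, rho 0.682) and *Chrdl1*, with 1 library at 0 reads, to *Mrpl1* (0.964, rho 0.759). Between members, r was 0.63 for *Sparcl1* and *Sparc*, 0.65 for *Gpc4* and *Gpc6*, 0.6 for *Gpc5* and *Gpc6*, and -0.62 for *Sparc* and *Bcan*.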

How the data were processed

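RNAseq was performed by the authors on GFP+ astrocytes (16 samples) and GFP- cells (3 samples) sorted from hippocampi of 9 month-old mice. Samples were grouped from the labels. The 10 members and all gene lists were chosen with earlier results of these data known.

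Per the study's methods, cDNA was amplified with a kit for low inputs, and paired reads were mapped on mm10 with STAR 2.4.0, counted on constitutive regions of FAST DB genes and normalized with DESeq2. Per the submitters' processing notes, FastQC, Picard and SAMtools were also used. The values deposited for each gene are a signal, reads divided by a size factor per sample. Amplified reads are not independent molecules. Since 100% of values were whole multiples of 1 read within 0.01 reads, whole reads were recovered. Genes listed without symbol were 34671, and 21293 were at 0 in every sample. Exon lengths are from GENCODE M21.

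Log2 (level + 1) was tested by limma (3.58.1, R 4.3.3) with trend, within both groups compared, where either group's mean level reached 10. The study's filter on intergenic background was not used here. Called means an unadjusted p not above 0.05 and a fold change of 1.5 or more, the study's thresholds. Exact permutation tests of single values were 2-sided. Scripts were tested on simulated data. Named genes were all members, up to 6 called genes per list by smallest p, *Socs3*, defining markers, and the gene most correlated with each member of mean level 100 or more. Some items are not reported here. Alternatives were pseudocounts of 0.1 and 10, no minimum level or 100, equal upper quartiles or equal totals, a joint fit of all 19 samples, the replicate number as a block, edgeR 4.0.16 and DESeq2 1.42.0 on whole reads, adjusted p, and leaving out each sample. Leaving out the 4 libraries under 20000 genes with a read was chosen after seeing the data. Samples with the same replicate number did not deviate together (closing section), so that numbers were not taken as pairs.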

Additional observations from a re-analysis of the deposited data

Results flagged for a closer look

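Among 30 sets of values (10 genes in astrocyte groups of 4, 5 and 7 samples), 4 held a sample far from the others by Dixon's criterion. Chance alone gives this in about 1 of 20 sets of normally distributed values. That rate does not hold for sets with samples at 0, such as those of *Thbs1* and *Thbs2*. *Sparc* was at 27468 units in APP-SOCS3 replicate 2, the highest of 5, with a gap of 0.771 of the group's range. *Bcan* was at 63701 units in APP-SOCS3 replicate 4 (gap of 0.733), and *Thbs2* at 20.6 units in the same sample, the others being at 0 (gap of 1). *Thbs1* was at 111.6 units in APP-GFP replicate 4, the highest of 4 (gap of 0.846). None of these values was left out of the report.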

How the results depend on the processing

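No member changed direction among called values. The count of called members in WT-GFP astrocytes against GFP- cells was 6 to 8 under all settings, and the log2 ratios of *Sparcl1* to *Sparc* and of *Gpc5* to *Gpc4* plus *Gpc6* moved by less than 1 SD. For APP-GFP against WT-GFP astrocytes the count of 1 became 0 with a pseudocount of 0.1, a minimum mean level of 100, equal upper quartiles, edgeR, DESeq2 or an adjusted p under 0.05, and was 0 to 1 when leaving out each sample. For APP-SOCS3 against APP-GFP astrocytes it became 0 with a pseudocount of 0.1, a minimum of 100, equal totals, equal upper quartiles, edgeR, DESeq2 or an adjusted p, and was 0 to 2 when leaving out each sample. For APP-SOCS3 against WT-GFP astrocytes the count of 0 became 1 with equal upper quartiles and stayed at 0 when leaving out each sample. With a minimum of 100, *Thbs2* is no longer tested; for the other settings the cause was not tested.

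With the replicate number as a block, the counts were 6, 2, 1 and 0 in the 4 comparisons. In the second, *Thbs4* joined *Thbs2* (0.7), and in the third *Thbs4* (-0.59) was called and *Thbs2* (-3.15) was not. *Chrdl1* was no longer called in the first (1.16). Deviations of same-numbered samples from their group means correlated at -0.015 to 0.019, -0.029 to 0.154, 0.006 to 0.089 and -0.076 to 0.095 across genes, so that a number is no sign of a pair. *Thbs1* and *Thbs2* had at most 128 reads in any astrocyte sample. WT-GFP replicate 1, with the most reads on genes (32621917), had 0 reads of both. WT-GFP replicate 7, with the fewest (19331876), had 13 and 7. What sets these low counts was not tested.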
